A study of Mus musculus with 46 samples.

Results

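The 31 fragments described here are candidate cis-regulatory elements (cCREs) of the Klf2 locus that lie past the start of Eps15l1 on mouse chromosome 8. They were chosen by position alone. A fragment entered if its name began with E, it was listed before a promoter in the Klf2 library and its start was 72420000 or more, except for E065, E067, E075, E087, E092 and E103. The 31 made up part of 82 cCREs of that library and of 368 cCREs tested before a promoter in the whole series. E102, E108 and E111 start beyond the same point but were not listed before a promoter, so they did not enter. The fragments spanned chr8:72422937-72758736 in mm10, and each start and end lay 450 bp apart. The tables used here do not say whether starts count from 0 or 1.

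The study asked which cCREs act on which promoters, using massively parallel reporter assays, in which each plasmid carries a barcode that is counted in RNA and in plasmid DNA. The cells were E14TG2a, 1 line of mouse embryonic stem cells, grown in medium with 2 kinase inhibitors and LIF, and transfected transiently by nucleofection, with RNA taken after 24 h. Of 46 samples, 6 cDNA samples were used: biological replicates 1 to 3 of the Upstream mix that held the libraries of Klf2, of Nanog and of negative controls, and biological replicates 1 to 3 of the Downstream mix. No genotype or drug differed between samples, and all contrasts are between constructs read in the same sample. In the Upstream assay the cCRE stood directly before the promoter. In the Downstream assay the promoter drove the reporter and the cCRE was inserted downstream of it. The readout came from plasmids, so it leaves out the fragments' own chromatin and distance to their genes.

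A cCRE is a stretch of DNA with chromatin marks of regulation that may act as an enhancer, binding transcription factors and raising transcription from a promoter at some distance. Others may silence, insulate or do nothing in a given cell. Klf2 encodes a Kruppel-like transcription factor of the naive pluripotency network in mouse embryonic stem cells. The genes around these fragments have other roles: Med26 encodes a subunit of Mediator, which links enhancers to RNA polymerase II, Sin3b a scaffold of histone deacetylase complexes, Tmem38a a cation channel of the endoplasmic reticulum, and Calr3 a calreticulin found mainly in testis.

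By RefSeq (GRCm38.p6), 8 of the 31 fragments overlapped Nwd1, 6 Sin3b, 4 Med26, 2 Tmem38a, 3 the predicted gene Gm46043 (2 of these also Calr3), and 1 each 1700030K09Rik, Cherp and Slc35e1. The other 5 (E082, E083, E088, E089 and E112) lay between genes. Activity was the ratio of cDNA to plasmid DNA barcodes in each replicate. The boost index was log2 of a construct's activity, as the geometric mean over replicates, minus log2 of the median construct with the same promoter in the same orientation (the basal activity). An index of 0 therefore means the activity of the median construct, not no activity. Upstream, 1392 constructs of the 31 cCREs were listed with 23 promoters, and 1355 remained after 37 with a replicate at 0 were left out. Each cCRE had from 3 constructs (E088) to 86 (E085). Downstream, 28 cCREs were measured in 496 constructs with 10 promoters, 26 of them with all 10. E084, E088 and E109 had no Downstream construct with a promoter, E094 had 2 and E106 had 8. The numbers of reads and barcodes behind each value are unknown here. Log2 activities of these constructs correlated between replicates with r from 0.948 to 0.956 Upstream and from 0.970 to 0.985 Downstream.

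The fragments' own sequences were not used here, apart from the part of E073 that RefSeq lists before a start of Calr3. That part is chr8:72435157-72435291 on the minus strand, and it is shown because E073 is the member that reaches a listed gene start. With it are shown the bases before a gene start of 4 promoter fragments. These are P023 (Tmem38a, chr8:72571658-72571822, plus strand), P011 (Cib3, chr8:72212838-72213087, minus strand), P017 (Eps15l1, chr8:72421475-72421724, minus strand) and P021 (Med26, chr8:72548311-72548560, minus strand). P023 and P011 were weak promoters with which the strongest member, E097, had a high index, and P017 and P021 were active ones with which its index was lower, as given below. The letters are RefSeq's, 5′ to 3′ on the named strand, and capitals mark CpG dinucleotides. RefSeq lists more than 1 start for some of these genes, and the starts of E073 and P023 lie inside the span of Calr3 and of Tmem38a.
E073 part before Calr3: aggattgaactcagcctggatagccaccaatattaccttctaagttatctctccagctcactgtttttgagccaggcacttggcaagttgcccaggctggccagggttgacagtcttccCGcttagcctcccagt
P023 before Tmem38a: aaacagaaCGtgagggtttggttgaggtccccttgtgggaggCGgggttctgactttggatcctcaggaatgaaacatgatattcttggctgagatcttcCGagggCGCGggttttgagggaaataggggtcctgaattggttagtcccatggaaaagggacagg
P011 before Cib3: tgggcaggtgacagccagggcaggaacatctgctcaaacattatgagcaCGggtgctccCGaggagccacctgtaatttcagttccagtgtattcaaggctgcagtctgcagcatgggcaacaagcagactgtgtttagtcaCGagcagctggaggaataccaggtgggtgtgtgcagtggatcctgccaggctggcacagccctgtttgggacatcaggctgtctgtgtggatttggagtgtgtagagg
P017 before Eps15l1: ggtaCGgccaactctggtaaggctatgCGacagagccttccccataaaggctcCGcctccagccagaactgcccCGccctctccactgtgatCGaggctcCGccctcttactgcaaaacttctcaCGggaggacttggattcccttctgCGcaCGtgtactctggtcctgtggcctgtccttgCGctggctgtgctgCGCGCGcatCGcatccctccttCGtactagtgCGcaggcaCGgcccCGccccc
P021 before Med26: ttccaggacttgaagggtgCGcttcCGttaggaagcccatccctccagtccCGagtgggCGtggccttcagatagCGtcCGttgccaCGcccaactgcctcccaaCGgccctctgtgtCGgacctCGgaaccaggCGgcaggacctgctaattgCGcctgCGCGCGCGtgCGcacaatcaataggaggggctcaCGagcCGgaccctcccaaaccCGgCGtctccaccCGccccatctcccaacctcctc
The windows of P023 and P011 held 5 CpGs in 165 bases and 3 in 250. Those of P017 and P021 held 18 and 22 in 250 bases, and the E073 part held 1 in 135. Over 32851 RefSeq promoter windows the full 250 bases held a median of 6 CpGs. Of these windows, 71.0%, 21.7% and 14.8% held at least as many as P011, P017 and P021. The shorter stretches that match P023 and the E073 part held medians of 4 and 3. In 47.3% and 84.1% of windows they held at least as many as P023 and the E073 part. Both strands were searched for TGANTCA (AP-1), ATGCAAAT (OCT), ACAATGG (SOX), AAGGTCA (ESRRB), GGGTGTGG (KLF), GGGGCGGGG (SP), CACGTG (E-box), CCGGAAG (ETS), AGATAA (the GATA motif), CAGCAGG (ZIC) and the NRF1 motif. P017 held 1 SP and 1 E-box match, found in 10.4% and 6.02% of all windows, and the E073 part held 1 GATA match, found in 5.03% of windows of its length. No other of these motifs was found in the 5 windows.

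Before a promoter, the 31 cCREs ranged from E094 to E097, and 1 of them stood far above the rest. The mean index over a cCRE's constructs had a median of -0.023 over the 31, against -0.063 over all 82 Klf2-locus cCREs, and 15 of 31 were above 0. It was above 0 in all 3 replicates for 9 cCREs, below 0 in all 3 for 15, and of either sign between replicates for 7. Only 5 were above 0.5 or below -0.5. The highest were E097, E082, E083, E088 and E105, and the lowest E094, E109, E098, E106 and E104. The other 21 lay between -0.31 (E071) and 0.33 (E074). These means rest on different sets of promoters, from 3 to 23 per cCRE, so the ranks are not taken over the same promoters.

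E097, at chr8:72676845-72677295 inside Nwd1, had a mean index of 1.93, 2.15 and 1.32 in replicates 1, 2 and 3 over 53 constructs with 22 promoters. Replicate 3 was the lowest, and even it lay above every other member in any replicate. The mean over constructs was 1.82 ± 0.43 (SD, n = 3), which was the second highest of all 82 cCREs of the locus. Averaged by promoter, the index was above 0 with 22 of 22 promoters. It ran from 0.61 with P022 (the promoter of Smim7) to 3.26 with P002, a fragment next to the Zfp882 promoter. E097 is also the fragment with the highest activity on its own among the members. Without a second fragment it read 1.74, 1.32 and 1.42 in the 3 replicates, against a median of 0.132 over the 31.

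The 5 constructs with the highest index were all of E097. In plus orientation before P002 in minus orientation it read 4.59, 4.18 and 3.71, against 0.185, 0.188 and 0.32 for that promoter alone. All 3 values were over 10 times the promoter alone, and the ranges did not overlap. The index was 4.24 ± 0.73 (SD, n = 3) and the difference from the promoter alone 4.21 ± 0.26 (SE) on the log2 scale. Limma's moderated test of 3 against 3, with Benjamini-Hochberg adjustment over all 3685 cCRE and promoter pairs, gave an adjusted p of 0.00638.

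In minus orientation before P023 (Tmem38a) E097 read 4.64, 3.37 and 2.75, against 0.238, 0.153 and 0.345 for P023 alone, an index of 4.02 ± 0.83 (SD, n = 3). In plus orientation before P011 in minus orientation (Cib3, a calcium and integrin binding protein) it read 2.14, 1.63 and 1.64 against 0.129, 0.0984 and 0.275, an index of 3.94 ± 1.08 (SD, n = 3). Both sets of 3 lay clear of their promoter. With P002 in plus orientation E097 in plus orientation read 2.77, 2.1 and 2.03, an index of 3.89. With P010 (Hsh2d, a haematopoietic adaptor protein) E097 in minus orientation read 2.18, 1.64 and 1.68, an index of 3.13. The adjusted p of these 4 differences from the promoter alone lay between 0.00681 and 0.00966 (limma, Benjamini-Hochberg). E097 without a second fragment read 1.74, 1.32 and 1.42. Its readings with P011 and P010 were thus only slightly above its own activity. A difference of these constructs from E097 alone was not tested.

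The index of E097 was larger where the promoter was weak. Over 15 promoters with a basal activity below 1 it averaged 2.36 ± 0.67 (SD, n = 3) in 31 constructs, and over 10 with a basal activity of 1 or more it averaged 1.06 ± 0.10 (SD, n = 3) in 22 constructs. A promoter can fall in both sets, one in each orientation. Across the 22 promoters the index and log2 basal activity had Pearson's r = -0.78 and Spearman's rho = -0.66. These points share 1 cCRE and 1 set of libraries, and the basal activity is itself a term of the index. P023 and P011, printed above, had basal activities of 0.164 and 0.11 over their orientations and an E097 index of 3.19 and 2.66. P017 (Eps15l1, an endocytic adaptor) and P021 (Med26) had 4.37 and 6.06, with an index of 0.96 and 1.13. The index among weak promoters differed between replicates, at 2.49, 2.89 and 1.58, and among active promoters it was 1.13, 1.11 and 0.94. The median activity of weak oriented promoters alone moved in the opposite order, at 0.145, 0.0754 and 0.282 in replicates 1, 2 and 3, and its part in the difference was not tested.

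E082 and E083, which lie between Med26 and Smim7, came next. E082 (chr8:72555765-72556215) had a mean index of 0.71, 1.27 and 0.75 in the 3 replicates over 19 constructs, 18 of them in plus orientation. It was above 0 with 13 of 13 promoters, from 0.061 with P003 (Zfp961) to 1.97 with P010. E083 (chr8:72561112-72561562) had 0.63, 1.07 and 0.47 over 83 constructs and was above 0 with 22 of 22 promoters, from 0.11 with P022 to 1.78 with P024 (Nwd1). Both were again larger with weak promoters. E082 averaged 1.43 ± 0.56 below a basal activity of 1 and 0.47 ± 0.08 at 1 or more, and E083 averaged 1.02 ± 0.48 and 0.34 ± 0.05 (SD, n = 3). The shift was not limited to the members with the highest index. E098, with a mean below 0, averaged -0.23 ± 0.15 with weak promoters and -0.55 ± 0.08 with the others (SD, n = 3). E105 and E074 moved the same way, from 0.67 to 0.23 and from 0.44 to 0.17. The remaining members were not split in this way.

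E105 and E088 completed the 5 highest. E105 (chr8:72734930-72735380, in Sin3b) had a mean index of 0.30, 0.70 and 0.39 over 78 constructs and was above 0 with 19 of 22 promoters. E088 (chr8:72642894-72643344), 2881 bp from Nwd1, had 0.53, 0.36 and 0.63, but in only 3 constructs with 3 promoters. At the low end, E094 (chr8:72663004-72663454, in Nwd1) had -0.61, -0.64 and -0.67 over 5 constructs. E098 (chr8:72677306-72677756, in Nwd1) had -0.38, -0.53 and -0.29 over 65 constructs and was above 0 with 4 of 22 promoters. E109, E106 and E104, all in Sin3b, had means of -0.44 (10 constructs), -0.36 (7) and -0.32 (23). All 3 replicates of these 5 were below 0.

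The 5 lowest single constructs all stood before weak promoters, where replicate values scattered. E104 in minus orientation before P013 in minus orientation (Fam32a) read 0.0553, 0.102 and 0.136 against 0.38, 0.314 and 0.46 for the promoter alone, an index of -1.87 ± 0.69 (SD, n = 3). This difference of -2.06 ± 0.38 (SE) passed the test with an adjusted p of 0.0258 (limma, Benjamini-Hochberg). The call was lost against the median construct, where the difference was -1.90 and the adjusted p 0.061 (limma), and without any 1 replicate. The others did not pass it. E072 before P004 (Cyp4f18) read 0.0325, 0.00545 and 0.398, with replicate 3 above the promoter's 0.182, 0.0931 and 0.296 and the others below. E091 before P013, E071 before P007 (Olfr374) and E072 before P012 had indices of -1.72, -1.65 and -1.55, with adjusted p from 0.143 to 0.709 (limma).

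Tested against the promoter alone, 202 of 1355 constructs passed an adjusted p of 0.05 (limma, Benjamini-Hochberg), beside 16.1% of all pairs of the locus. Of these, 50 were higher, beside 4.10% of all pairs, and 152 lower, beside 441 of all 3685. E097 gave 31 of the 50 higher constructs, E083 8, E105 6, E074 and E082 2 each and E088 1. Among the lower ones, E098 gave 22, E078 15, E112 14 and E089 12. With the replicate as a block 369 passed, beside 28.2% of all pairs, 83 higher (6.62%) and 286 lower (21.6%). Against the median construct in place of the promoter alone 75 passed, beside 7.25%, 58 higher (4.83%) and 17 lower (2.42%), so the split of higher and lower turned with the baseline. Without any 1 replicate the same limma test called none, while 170, 207 and 437 had an unadjusted p under 0.05 without replicates 1, 2 and 3. In simulated data, with the errors of construct and baseline drawn independently, the test recovered 61.5% of differences of 2 on the log2 scale and none of 1.

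Averaged over a cCRE's constructs, 2 of 31 passed against the promoter alone (limma, Benjamini-Hochberg), beside 5.06% of 79 cCREs tested, 1 higher (3.80%) and 1 lower (1.27%). E097 rose by 1.52 ± 0.28 (SE) with an adjusted p of 0.0131, and E094 was lower by a log2 difference of -1.09 ± 0.23 (SE) with an adjusted p of 0.025. The call of E097 was lost without replicate 1, where the difference was 1.49. The call of E094 was lost without replicate 1 or 3, against the median construct and with the median over its 5 constructs. E082, E083, E088 and E105 differed from the promoter alone by 0.63 ± 0.25 (SE), 0.48 ± 0.30 (SE), 0.067 ± 0.25 (SE) and 0.22 ± 0.31 (SE), with adjusted p from 0.225 to 0.802. With the replicate as a block 23 of 31 passed, 3 higher (E097, E082 and E083, beside 12.7% of all cCREs) and 20 lower (E104, E106, E109 and E098 among them, beside 67.1%), together beside 79.7%. Against the median construct 1 passed (E097), beside 3.80%.

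Placed downstream of the reporter, the cCREs varied less, and E097 was again the highest. The mean index had a median of -0.00096 over 28 cCREs, against 0.022 over all 84 cCREs of this assay, and 14 were above 0. The values ran from -0.58 (E098) to 0.57 (E097), and 3 were above 0.5 or below -0.5. The 20 shuffled and random control inserts had a median of -0.21 and ran from -0.57 to 0.54. E097 was the 1 member above that range and E098 the 1 below it, both by little. The mean of E098 was -0.578 against -0.575 for the lowest control, and its replicate 2, at -0.513, lay inside the range. Replicates 2 and 3 of E097, at 0.544 and 0.543, lay just above the highest control at 0.539.

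E097 had a mean Downstream index of 0.62, 0.54 and 0.54 in the 3 replicates over 20 constructs. It was above 0 with 10 of 10 promoters, from 0.30 with P014 to 0.80 with P018 (1700030K09Rik and Calr3). The correlation of its index with log2 basal activity over these 10 promoters was weak (r = -0.14, rho = -0.20). E093 (in Nwd1) and E074 (in 1700030K09Rik) followed. E093 had 0.36, 0.32 and 0.31 and was above 0 with 10 of 10 promoters, and E074 had 0.36, 0.27 and 0.32 and was above 0 with 9 of 10. E085 (in Tmem38a) and E077 (in Slc35e1) had means of 0.18 ± 0.04 (SD, n = 3) and 0.16 ± 0.029 (SD, n = 3). All 3 replicates were above 0 for these 5.

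E098 was the lowest, at -0.60, -0.51 and -0.63 in the 3 replicates, and E081 (chr8:72539176-72539626, in Med26) was next, at -0.55, -0.52 and -0.57. Both were below 0 with 10 of 10 promoters. Their order reversed in replicate 2, so the difference between them lay within the replicates' spread. E083, among the highest Upstream, had -0.20, -0.28 and -0.37 and was below 0 with 9 of 10 promoters. E104 and E096 had means of -0.27 ± 0.047 (SD, n = 3) and -0.21 ± 0.068 (SD, n = 3), and all 3 replicates of each were below 0. The other members measured Downstream lay between -0.21 (E071) and 0.16 (E076).

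The highest Downstream constructs involved several cCREs. E097 in minus orientation with P021 (Med26) read 4.2, 4.04 and 4.46, against 1.7, 1.62 and 1.74 for the mean of the controls with P021 and 2.58, 2.59 and 2.52 for P021 alone. The 3 values lay above both. The index was 1.20 ± 0.038 (SD, n = 3) and the difference from the controls 1.33 ± 0.10 (SE), with an adjusted p of 8.05e-06 (limma, Benjamini-Hochberg over 1364 pairs). E076 and E079 with the same promoter read 3.96, 3.28 and 3.75 and 3.85, 3.12 and 3.47, with indices of 0.98 and 0.91. E080 in plus orientation with P014 read 2.41, 2.1 and 1.96 against 1.23, 1.15 and 1.04 for the controls, an index of 0.99 ± 0.031 (SD, n = 3). E080 in minus orientation with P001 (Zfp882, a zinc finger protein) read 0.488, 0.584 and 0.513 against 0.142, 0.177 and 0.207 for the controls, an index of 0.89 ± 0.22 (SD, n = 3). P001 alone read 0.299, 0.368 and 0.394, and the difference from it was 0.58, against 1.60 from the controls. The adjusted p of these 4 differences from the controls lay between 1.65e-05 and 0.000138 (limma).

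E081 in minus orientation made up 3 of the 5 lowest Downstream constructs. With P016, the promoter of Klf2 itself, it read 0.306, 0.49 and 0.445 against 0.629, 1.06 and 0.899 for the controls, an index of -1.07 ± 0.028 (SD, n = 3). With P013 (Fam32a) it read 0.556, 0.459 and 0.428 against 0.955, 0.845 and 0.746, an index of -1.03 ± 0.014 (SD, n = 3). In each replicate the construct lay below its controls. With P001 it read 0.119, 0.105 and 0.14, an index of -1.24 ± 0.20 (SD, n = 3). These 3 differences had adjusted p of 0.00165, 0.000568 and 0.0147 (limma). The call with P016 was lost without replicate 3 (0.0726), and that with P001 without replicate 2 (0.168) or 3 (0.0552). E105 in plus orientation with P013 read 0.535, 0.443 and 0.407 and passed (-0.88 ± 0.14 (SE), adjusted p = 0.000375, limma). E098 in plus orientation with P001 had an index of -1.05 but differed from the controls by -0.34 ± 0.15 (SE), with an adjusted p of 0.07 (limma). It passed with the replicate as a block (adjusted p = 0.000219, limma), without replicate 1 (0.00408), and against the median construct and the promoter alone, where the differences were -1.06 and -1.36.

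Against the control inserts, 220 of 496 constructs passed (limma, Benjamini-Hochberg), beside 52.3% of all pairs. Of these, 147 were higher, beside 37.0%, and 73 lower, beside 15.3%. E097 gave 18 of the 147, E093 14, E074 13 and E076 10, while E081 and E098 gave 12 each of the 73. The calls also differed by promoter. P001, which had the fewest control constructs (10), gave 33 higher and 1 lower of 49. P014 gave 5 higher and 19 lower of 46, and P017 4 and 21 of 54. The shares over all cCREs with each promoter are not given here. The members' mean index was alike with P001, P014 and P017, at -0.086, -0.063 and -0.085. The controls read 0.142, 0.177 and 0.207 with P001, whose basal activity was 0.283. With P014 they read 1.23, 1.15 and 1.04, and its basal activity was 1.08. The split depended on the baseline: against the median construct 191 passed (beside 47.1%), 87 higher and 104 lower (beside 25.9% and 21.3%), and against the promoter alone 259 passed (beside 53.0%), 26 higher and 233 lower (beside 10.6% and 42.4%). With the replicate as a block 409 passed, beside 83.9%, 264 higher (56.1%) and 145 lower (27.9%). Without replicate 2 the count was 123. For each promoter the controls lay in other sub-libraries than the cCREs, so a difference between cCREs and controls and a difference between sub-libraries cannot be told apart.

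Averaged over its constructs, 18 of 27 cCREs passed against the controls (limma, Benjamini-Hochberg), beside 77.5% of 80 cCREs tested, 15 higher (beside 57.5%) and 3 lower (beside 16 of the 80). E097 rose by 0.74 ± 0.045 (SE), E093 by 0.49 ± 0.045 (SE), E074 by 0.48 ± 0.045 (SE), E085 by 0.34 ± 0.045 (SE) and E077 by 0.33 ± 0.045 (SE) on the log2 scale. The 3 lower ones were E098 at -0.41 ± 0.045 (SE), E081 at -0.38 ± 0.045 (SE) and E083 at -0.12 ± 0.045 (SE), the last with an adjusted p of 0.0121 (limma) that missed the threshold without replicate 2 or 3. E104 and E096 differed by -0.09 ± 0.045 (SE) and -0.021 ± 0.045 (SE) and did not pass. E104 passed with the replicate as a block (adjusted p = 0.0183, limma) and without replicate 1 (0.0026). Both E104 and E096 passed against the median construct, at -0.27 and -0.21, against the promoter alone, at -0.55 and -0.51, and with the median over constructs. The SE is the same for every cCRE because limma's fit took 1 spread for the whole table. Against the median construct 20 passed (beside 82.5%), 9 higher and 11 lower (beside 42.5% and 40.0%). Against the promoter alone 25 passed (beside 88.8%), 1 (E097) higher and 24 lower (beside 17.5% and 71.2%), and E085 and E077 turned to -0.12 and -0.14 and the differences of E093 and E074, at 0.030 and 0.016, no longer passed.

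E097 and E098 lie 11 bp apart inside Nwd1. E097 was the highest member in both assays, and E098 was the lowest Downstream and among the 5 lowest Upstream. In 34 Upstream constructs matched by promoter and by orientation of both fragments, E097 was higher than E098 in 34, by a mean of 2.39, 2.85 and 1.77 on the log2 scale in replicates 1, 2 and 3 (2.34 ± 0.54, SD, n = 3). In 20 matched Downstream constructs it was higher in 20, by 1.22, 1.06 and 1.17 (1.15 ± 0.08, SD, n = 3). The smallest single differences were 0.52 and 0.36. E104 and E105 lie 38 bp apart inside Sin3b and differed less: E105 was higher in 17 of 23 Upstream constructs, by a mean of 0.44 ± 0.13, and in 9 of 15 Downstream constructs, by 0.22 ± 0.02 (SD, n = 3). The members in Nwd1 held the lowest and the highest Upstream index of the 31, -0.63 (E094) and 1.82 (E097), with 2 of 8 above 0. Those in Sin3b ran from -0.44 to 0.49 with 3 of 6 above 0, and the 4 in Med26 from -0.30 to 0.20.

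Upstream and Downstream positions ranked the cCREs in a similar but not identical order. Over the 28 measured in both, the mean indices had r = 0.55 and rho = 0.56, and without E097 r = 0.34 and rho = 0.51. Over 51 other cCREs of the locus r was 0.73. The points share libraries and promoters, and the 2 mixes were separate transfections. Of the 28, 10 were above 0 in both assays, 10 below 0 in both, 4 above 0 only Upstream (E073, E083, E105 and E107) and 4 only Downstream (E072, E093, E095 and E106). The sign of E073 and E107 Upstream, at 0.011 and 0.10, differed between replicates. So did that of E072 and E106 Downstream, at 0.0011 and 0.0060. With constructs matched by promoter and orientation, E083 averaged 0.35 Upstream and -0.26 Downstream over 18 constructs, 17 above 0 Upstream and 3 Downstream. E093 went the other way, at -0.012 and 0.33 over 19 constructs, of which 10 and 19 were above 0. E097 averaged 0.96 and 0.62 over 13, with 12 above 0 in each.

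Downstream, the orientations of some members differed with every promoter, while other members passed this test with none. Plus and minus are used as the tables write them, and what they refer to is not given in the sources used here. Of 229 cCRE and promoter pairs measured in both orientations Downstream, 104 differed (limma, Benjamini-Hochberg), beside 41.3% of all such pairs. Of these, 49 had plus higher, beside 141 of all 612 pairs, and 55 had minus higher, beside 112 of all 612. With the replicate as a block 184 did, beside 80.6%. The count was 50 without replicate 2 and 68 without replicate 3.

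E105 was higher in minus orientation with 10 of 10 promoters, and 10 of 10 passed, with a median difference of -1.07 (plus minus minus). With P013 it read 0.535, 0.443 and 0.407 in plus and 1.47, 1.18 and 1.18 in minus orientation, and with P001 0.13, 0.14 and 0.149 and 0.326, 0.359 and 0.422. The replicates of its orientations did not overlap with either promoter. The differences were -1.47 ± 0.14 (SE) and -1.40 ± 0.12 (SE), each with an adjusted p of 4.17e-05 (limma, Benjamini-Hochberg). Beside their controls, plus was lower and minus higher with P013. E076 was also higher in minus orientation with 10 of 10 promoters, all of which passed (median -0.75), and its plus and minus orientations averaged -0.23 and 0.55.

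E081 and E083 were higher in plus orientation with 10 of 10 promoters each, of which 9 and 8 passed. E081 averaged -0.21 in plus and -0.88 in minus, and E083 -0.016 and -0.55. With P001, E081 read 0.262, 0.301 and 0.358 in plus and 0.119, 0.105 and 0.14 in minus orientation, a difference of 1.34 ± 0.15 (SE). E110 (in Sin3b) passed with 9 of 10 promoters, 8 with plus higher, and with P014 it read 2.32, 1.87 and 1.8 in plus and 0.828, 0.749 and 0.726 in minus, a difference of 1.37 ± 0.12 (SE). E080 changed sides between promoters: it passed with minus higher for 5 and with plus higher for 2. With P001 it read 0.175, 0.201 and 0.247 in plus and 0.488, 0.584 and 0.513 in minus, a difference of -1.36 ± 0.14 (SE). For these 3 the adjusted p lay between 4.17e-05 and 9.22e-05 (limma). E085, E093, E082 and E091 passed with none of their 10, 10, 6 and 8 promoters, with median differences between -0.032 and 0.12. E099, E104 and E071, with 5, 5 and 2 promoters, also passed with none.

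Upstream, 10 of 462 orientation pairs passed (limma, Benjamini-Hochberg), beside 1.31% of all, 9 with plus higher (1.14%) and 1 with minus higher (0.163%). E097 gave 5 of the 9 and E105 3. E105 with P013 in minus orientation read 1.27, 1.38 and 1.52 in plus and 0.202, 0.213 and 0.398 in minus, a difference of 2.43 ± 0.30 (SE). With P010 in minus orientation it read 0.612, 0.633 and 0.733 and 0.145, 0.121 and 0.217, a difference of 2.08 ± 0.25 (SE). E097 with P011 in minus orientation read 2.14, 1.63 and 1.64 and 0.441, 0.281 and 0.438, a difference of 2.24 ± 0.25 (SE). All replicates in plus lay above all in minus in these 3. E097 with P002 in minus orientation and E072 with P009 (Rab8a) differed by 1.77 ± 0.15 (SE) and 1.52 ± 0.20 (SE). The adjusted p of the 5 lay between 0.0261 and 0.0425 (limma). With the replicate as a block they lay between 0.059 and 0.0735 and none of the 462 passed, beside 0.00% of all, with 153 at an unadjusted p under 0.05. Without any 1 replicate limma also called none (29 to 79 unadjusted).

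E105 thus had opposite favoured orientations Upstream and Downstream. With the same promoters in plus orientation, it averaged 0.49 Upstream and -0.62 Downstream over 9 constructs in plus orientation, and 0.075 and 0.34 over 8 in minus orientation. Over the 23 members with orientation pairs in both assays, the median orientation differences had r = -0.38 and rho = -0.45, and these points share promoters and libraries.

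Whether a cCRE acted alike on its promoters was asked by setting each construct's index against the mean index of the same oriented cCRE with its other promoters. Downstream, 267 of 489 constructs differed (limma, Benjamini-Hochberg), beside 57.6% of all, 117 higher (25.3%) and 150 lower (32.4%). E080 in plus orientation with P014 deviated by 1.18 ± 0.032 (SE), E071 in minus orientation with P021 by 1.05 ± 0.043 (SE) and E072 in plus orientation with P019 (Cherp, an endoplasmic reticulum and splicing protein) by 1.03 ± 0.071 (SE). These are cCREs whose mean index was near or below 0. E071 read 3.23, 3.01 and 2.96 with P021 against 1.7, 1.62 and 1.74 for the controls, and it was below 0 with its 9 other promoters. E072 with P019 read 0.606, 0.729 and 0.577 against 0.299, 0.378 and 0.335. E080 in minus orientation with P001 deviated by 0.80 ± 0.10 (SE), and E073 in plus orientation with P022 by 0.79 ± 0.054 (SE). For these 5 the adjusted p lay between 5.61e-07 and 0.000412 (limma). The SD of a cCRE's index over 10 promoters ran from 0.11 (E095) to 0.33 (E071).

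Upstream, 9 of 1336 constructs deviated in this way (limma, Benjamini-Hochberg), beside 0.740% of all, 5 higher (0.356%) and 4 lower (0.384%). E097 in plus orientation before P017 in plus orientation, the promoter of Eps15l1, read 13.7, 14.8 and 10.5 against 15, 15 and 12.2 for P017 alone. All 3 values lay below those of P017 in the same replicate, but the construct did not differ from P017 alone by the test. That difference was -0.12 ± 0.19 (SE), with an adjusted p of 0.804 (limma). The index of this 1 construct was 0.24 and its deviation -2.52 ± 0.25 (SE), while over all its constructs with P017 the index of E097 averaged 0.96. E105 before P002 read 0.799, 0.828 and 1.53 against 0.145, 0.109 and 0.282 and deviated by 1.93 ± 0.25 (SE). E077 before P002 and P001 and E085 before P013 deviated by 1.21 ± 0.13 (SE), 0.87 ± 0.11 (SE) and 0.94 ± 0.12 (SE). The adjusted p of all 5 deviations was 0.047 (limma). Against the promoter alone E105 before P002 passed (adjusted p = 0.0234, limma). E077 before P002 and P001 and E085 before P013 did not (0.195, 0.835 and 0.0636). With the replicate as a block, E077 before P002 and E085 before P013 passed that test (0.0367 and 0.0222, limma). With the replicate as a block or without any 1 replicate none of the 1336 deviations passed (limma), beside 0.00% of all with the block, with 307 and 148 to 289 at an unadjusted p under 0.05. With 0.01 added to every activity, so that constructs with a 0 could stay, the count was 32.

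With the Klf2 promoter (P016), 16 of the members were measured Upstream and 27 Downstream. Upstream, E097 averaged 2.48 ± 0.43, E105 1.19 ± 0.25 and E083 1.14 ± 0.28 (SD, n = 3). Each gave 2 constructs that passed above the promoter alone, of 2, 3 and 4 constructs. E089, E091, E095 and E112 gave 1 construct each that passed below it. Of 38 constructs with P016, 6 were higher and 4 lower. With any promoter, 4.10% of all pairs of the locus were higher and 441 of 3685 lower. The other 13 ran from -0.57 (E078) to 0.35 (E110). Downstream, E097 was again the highest with P016, at 0.67 ± 0.16, and E081 and E096 the lowest, at -0.66 ± 0.05 and -0.65 ± 0.05 (SD, n = 3). Each cCRE was also compared between the nearest promoter of the assay and its other promoters. Members not measured with that nearest promoter, such as E096 and E112 Upstream, were left out. The index with the nearest promoter was higher for 8 of 17 members Upstream and 15 of 26 Downstream, with median differences of -0.0054 and 0.096. Upstream that promoter lay 1552 bp (E071) to 31033 bp (E079) away. Downstream, where P024 and P025 were not measured, it was P022 for every member compared from E089 to E112, 73718 to 187442 bp away. For these members, nearness and the choice of P022 cannot be told apart.

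The members' own activity was read without a promoter as well. Alone Upstream, E097 stood highest at 1.48, followed by E088 at 0.902 (1.17, 0.678 and 0.928 in the 3 replicates), E082 at 0.315 and E083 at 0.3. The other 27 lay between 0.0614 (E094) and 0.262 (E105). Downstream in a vector without a promoter, E082 was the highest of 27 members and of all 76 cCREs measured there, at 0.631, 0.87 and 0.945 in the 3 replicates, against a median of 0.118 and a highest value of 0.224 among 20 control inserts. E097 read 0.462, 0.608 and 0.568 there. Both lay above every control, as did E083 at 0.284 and E074 at 0.261. Here too the controls lay in another sub-library. The log2 activity alone and the Upstream mean index had r = 0.89 and rho = 0.84 over 31 members, which share their libraries, and the log2 activity in the vector without promoter and the Downstream mean index had r = 0.59 and rho = 0.60 over 27. The activity in that vector and the Upstream mean index had r = 0.83 and rho = 0.75 over the same 27.

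E095 (in Nwd1) was also present Downstream as 3 shuffled versions. The native fragment had a mean index of 0.11, 0.11 and 0.092 in the 3 replicates, and the shuffled versions had -0.48 ± 0.06, -0.25 ± 0.07 and -0.39 ± 0.05 (SD, n = 3). All 3 replicates of the native fragment lay above all of theirs. Single constructs overlapped: the shuffled versions reached 1.07, 1.04 and 1.45, against 0.62 for the native fragment. The native fragment had 10 promoters and each shuffled version 9. Shuffled inserts were among the controls, whose median index was -0.21 and which lay in other sub-libraries. A difference of sequence and one of sub-library therefore cannot be told apart here. Before a promoter the native fragment was near the middle, at -0.023 ± 0.023 (SD, n = 3) over 82 constructs.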

How the data were processed

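The authors' deposited activity is a ratio of cDNA to plasmid DNA barcodes per construct and biological replicate. Bowtie2 and the build mm10 come from the submitters' processing notes, and how barcodes were counted, filtered and averaged is not given in the sources used here. The authors' deposited boost index is on a log2 scale and was recomputed within 0.001 for all 3685 Upstream and 1364 Downstream pairs compared. SDs are between the indices of the 3 replicates, each with its own basal activity, so their mean can differ slightly from the index given. Of the value columns, 20 have no single sample and were not used in tests.

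Log2 activities were tested with limma 3.58.1 (R 4.3.3), 3 values against 3, with Benjamini-Hochberg adjustment over all Klf2-locus cCREs of an assay at 0.05. Averages of a cCRE were tested where it had at least 3 promoters. Python 3.11.15, numpy 2.4.6 and pandas 2.3.3 did the rest. Replicate numbers pair the values, since a construct and its baseline are read in the same cDNA sample. Their deviations correlated at 0.020, 0.59 and 0.79 in replicates 1, 2 and 3 Upstream and at 0.84 to 0.91 Downstream, so fits with the replicate as a block are given beside results they change. Replicates were separate transfections of 1 plasmid mix, so errors leave out differences between plasmids of a construct. Tested on simulated data, the Downstream pair test recovered 78.5% of log2 differences of 0.5, with 5.99% false calls, and the Upstream pair test gave 3.15% false calls at differences of 2. At differences of 1 the share of false calls was 11.1% for Upstream cCREs, 9.09% for Downstream cCREs and 8.86% for Upstream deviations between promoters. The simulation drew the errors of a construct and its baseline independently, unlike these data, so its rates need not hold here.

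The alternatives were the block, leaving out each replicate, other baselines, a pseudocount of 0.01 with constructs at 0 kept, leaving out the promoters below the 25th percentile of basal activity and a median over constructs. Named with values were, in each assay, the 5 highest and 5 lowest cCREs and constructs, and up to 5 constructs each with the largest deviation between promoters or orientations among those that passed. Others named were chosen after their values were seen. The members and lists were chosen with earlier results of these data known.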

Additional observations from a re-analysis of the deposited data

How the results depend on the processing

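Taking the replicate as a block (each construct paired with its baseline in the same sample) moved the count of Upstream pairs against the promoter alone from 202 to 369, of Downstream pairs against controls from 220 to 409, of Upstream cCREs from 2 to 23 and of Downstream orientation differences from 104 to 184. It took Upstream orientation differences from 10 to 0 and Upstream deviations between promoters from 9 to 0. It moved the other 2 counts by less than 1.5 times, to 21 Downstream cCREs and 315 Downstream deviations. Leaving out each replicate in turn gave counts of 0 to 0 for Upstream pairs, Upstream orientation differences and Upstream deviations, 0 to 3 for Upstream cCREs, 123 to 234 for Downstream pairs, 50 to 115 for Downstream orientation differences, 16 to 20 for Downstream cCREs and 204 to 219 for Downstream deviations. Fits on 2 replicates have fewer degrees of freedom.

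Against the median construct the counts were 75 Upstream pairs and 1 Upstream cCRE. With the median over constructs 1 Upstream cCRE passed, without promoters below the 25th percentile of basal activity 141 Downstream pairs of 349 did, and with a pseudocount 32 Upstream deviations did. The cause of these changes was not tested. Among single named results, 4 turned direction: E088 Upstream, which ran from -0.031 (without replicate 3) to 0.17 as replicates were left out, E096 Downstream, which ran from -0.076 to 0.020 (without replicate 2), and E085 and E077 Downstream to -0.12 and -0.14 against the promoter alone. Read and barcode numbers are unknown here, so which constructs are limited by depth cannot be told.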
